A study of Saccharomyces cerevisiae with 10 samples.

Results

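Glycogen, the branched glucose store of yeast, is made and broken down by a small set of enzymes, and 10 of their genes are described here as they differed between the Saccharomyces cerevisiae strains DJ28 and FY23. The genes were chosen by symbol or alias in the platform annotation. GSY1 and GSY2 encode glycogen synthases, GLG1 and GLG2 glycogenins, GLC3 the branching enzyme, GPH1 glycogen phosphorylase, GDB1 the debranching enzyme, and GAC1, PIG1 and PIG2 subunits of a protein phosphatase. All 10 were found, each as 1 row, among 6259 genes and unnamed rows on the arrays. Total RNA of the strains was compared directly on 10 arrays with 2 dyes. DJ28 carried Cy3 and FY23 carried Cy5 on arrays 1 to 5, and the reverse held on arrays 6 to 10. The title of the series speaks of a mutant whose Ras/cAMP pathway is constantly active, and the labels name PDE2. Neither the genotypes of the strains nor the medium or stage of growth is given in the labels. RNA of whole cell populations was compared, so fewer cells with a transcript and less of it per cell cannot be told apart.

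Glycogenin starts a glucose chain on itself, glycogen synthase extends it from UDP-glucose, and the branching enzyme adds side chains. Phosphorylase releases glucose 1-phosphate from the chain ends, and the debranching enzyme removes what phosphorylase leaves at a branch. Gac1 brings the phosphatase Glc7 to glycogen synthase, which is active when dephosphorylated. Yeast lays down glycogen as growth slows. Protein kinase A, the kinase that cyclic AMP switches on, is known to lower this store, and mutants with high cyclic AMP hold little glycogen.

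Each value below is a log2 ratio of DJ28 over FY23 on 1 array, after that array was centred on its median, and a difference is the same quantity fitted over the arrays with limma. The sources used here do not say which dye is the numerator of the deposited ratio. PDE2, the gene of a cyclic AMP phosphodiesterase, set the direction: the ratio was read so that DJ28 has less of it, which is likely but not settled. This takes DJ28 as the mutant, and under the other direction every higher and lower here would turn together. Read so, PDE2 had a difference of -1.96 (standard error 0.168, limma adjusted p = 0.00153) and was below 0 on 8 of 8 replicates. Arrays 6 and 7 correlated at r = 0.988, while no other pair exceeded 0.694, so they entered as their mean and 9 replicates remained. These r are of the ratio of the dyes. Within an orientation r fell to -0.0075, for arrays 3 and 4, while arrays 3 and 8, of opposite orientation, had 0.675. Counts of replicates below do not allow for likeness between arrays. Arrays 1 and 2 were sparse, with 2230 and 4342 values, where the remaining arrays had from 5755 to 6048. Arrays 4, 5, 9 and 10 each had cells at the upper limit of the table, and values within these 4 arrays and within the remaining arrays are given where they bear on a result. Separate cultures are not mentioned in the labels, and p-values therefore cover only the spread between arrays, which may be technical.

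The glycogen genes formed a lower set, which held synthesis and breakdown genes alike, and a set near 0. GDB1, GAC1, GPH1, GLC3 and GSY2 had differences from -0.72 to -0.50, which is 1.65-fold to 1.41-fold lower in DJ28. GLG1, GSY1 and GLG2 lay between -0.11 and -0.05, and PIG2 was at 0.23. PIG1 had too few values for the test, which asked for at least 3 replicates in each dye orientation. Of the 9 genes tested 1, GAC1, was lower past limma's test at an adjusted p under 0.05, against 0.461% of 5642 genes and rows tested. None was higher, against 0.0886% of all tested, and 0 were higher at an unadjusted p under 0.05, against 5.96%. At an unadjusted p under 0.05 the 5 genes of the lower set passed, against 7.39% of all tested in that direction. By sign alone 8 of the 9 differences were negative, against 43.9% of all tested. The same 5 genes had orientations that did not overlap, meaning that each DJ28-in-Cy5 replicate lay below each DJ28-in-Cy3 replicate in the ratio of the dyes, against 4.06% of all tested. The median difference of the 9 genes was -0.50, and that of all tested was 0.03. With the genes split as above, the former is the value of GSY2, at the edge of the lower set. On single replicates the median of the glycogen genes ran from -0.44 to 0.03. Counted from the lowest difference of all tested, GDB1 held rank 37, GAC1 rank 101, GPH1 rank 121, GLC3 rank 132 and GSY2 rank 160. The 95% intervals of these 5 genes overlapped one another, and differences between neighbours in this order were not tested. GLG1 came next of the 9 genes, at rank 1424.

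**Figure D1:**
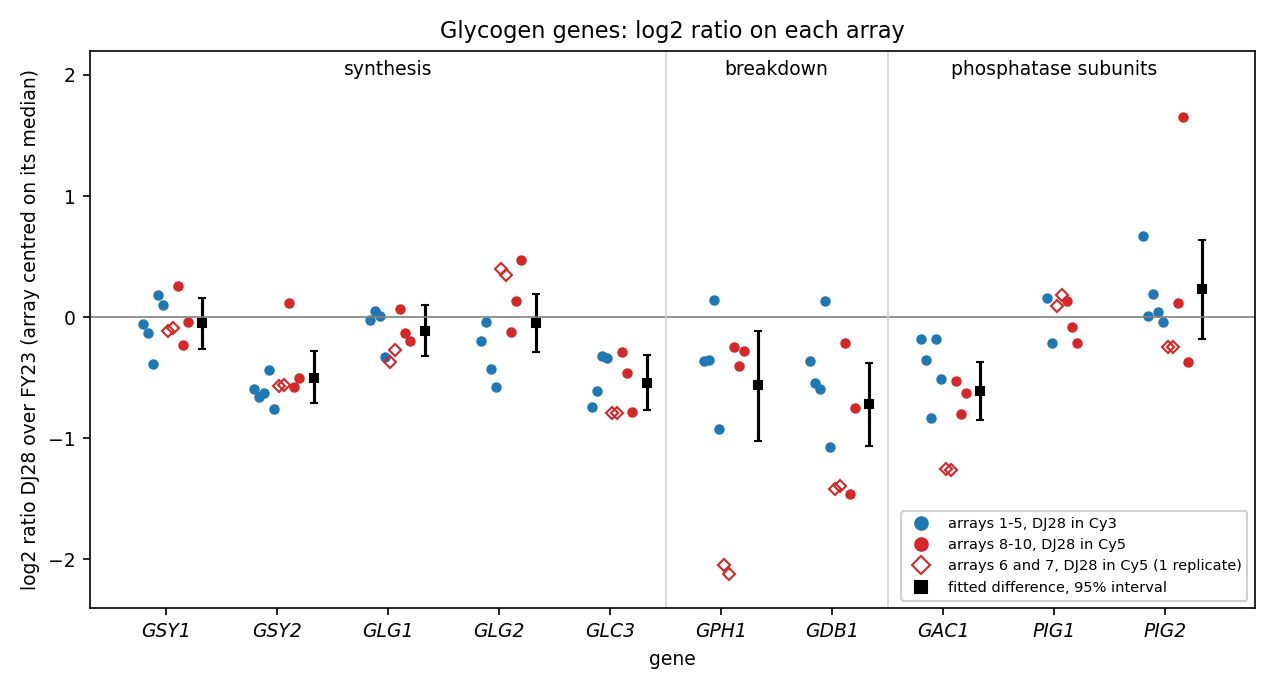
Log2 ratio of DJ28 over FY23 (vertical axis) for each glycogen gene (horizontal axis) on each array, blue with DJ28 in Cy3 and red with DJ28 in Cy5, open diamonds for arrays 6 and 7. Black squares are fitted differences with 95% intervals, which lie wholly below 0 for GSY2, GLC3, GPH1, GDB1 and GAC1, and PIG1 has none.

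**Figure D2:**
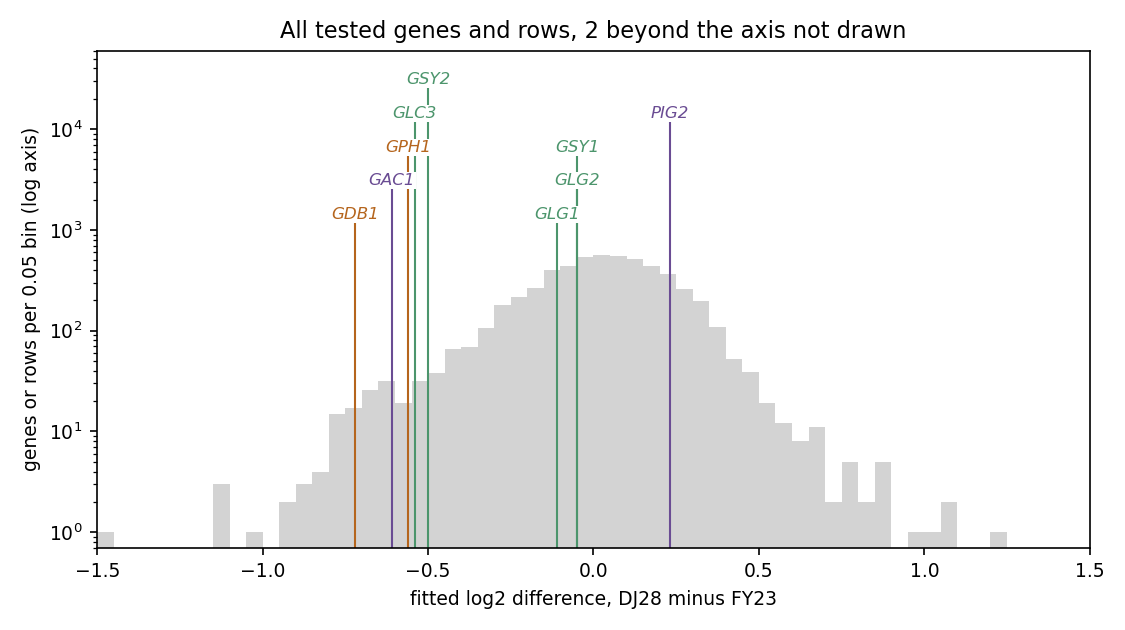
Distribution of the fitted log2 difference (horizontal axis) over the 5642 genes and rows tested, as the number per bin on a log axis, with a line at each of the 9 glycogen genes tested. GDB1, GAC1, GPH1, GLC3 and GSY2 stand at -0.50 or lower and the remaining 4 lie between -0.11 and 0.23, within the bulk of all genes.

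Among the synthesis genes, the glycogen synthases differed from each other. GSY2 (YLR258W), the gene of the synthase that supplies most of the activity in resting cells, had values of -0.59, -0.66, -0.63, -0.44 and -0.76 on arrays 1 to 5. With DJ28 in Cy5, on arrays 6 to 10, it had -0.57, -0.56, 0.12, -0.58 and -0.50. All arrays except array 8 were thus below 0 within a narrow range. Its difference was -0.50 (95% interval -0.71 to -0.28), 1.41-fold lower, with a standard error of 0.0989. It missed the threshold (limma, adjusted p = 0.0572) and passed it without array 8, at -0.58 (adjusted p = 0.0142). Leaving out array 8 also raised the count past the test over all genes from 31 to 79. GSY2 did not pass without any other single array, and without array 9 it was at -0.46 (adjusted p = 0.237). Within arrays 4, 5, 9 and 10 the difference was -0.57, and within the remaining arrays -0.42.

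GSY1 (YFR015C), which encodes the other synthase, had values of -0.06, -0.13, -0.39, 0.18 and 0.10 on arrays 1 to 5. The values on arrays 6 to 10 were -0.11, -0.09, 0.26, -0.23 and -0.04. They lay on both sides of 0 in each orientation, 6 of 9 replicates below it. The difference was -0.05 (95% interval -0.26 to 0.16, limma adjusted p = 0.853), and with no centring of the arrays it was 0.05. Set against each other on the same array, GSY1 was above GSY2 on 9 of 9 replicates, by 0.14 to 0.85. The difference of GSY1 minus GSY2 was 0.45, with a standard deviation of 0.21 over replicates. An exact two-sided permutation test of the dye orientations gave p = 0.00794, the smallest it can give, and 0.0397 after Benjamini-Hochberg adjustment over 5 gene pairs. With 1 replicate fewer the unadjusted p was again the smallest the test can give. The adjusted p then lay between 0.0857 and 0.143, so the call was lost, and the difference ran from 0.41 to 0.49.

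**Figure D3:**
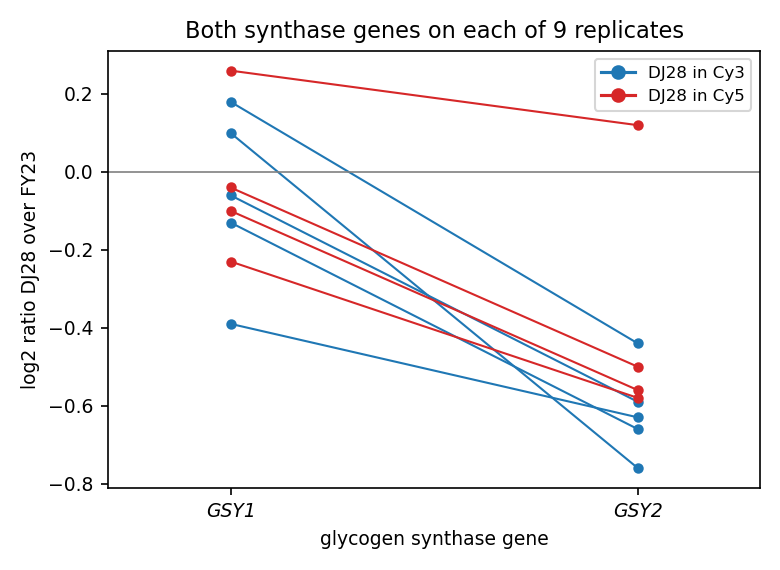
Log2 ratio of DJ28 over FY23 (vertical axis) of GSY1 and GSY2 on the same replicate, joined by a line, blue with DJ28 in Cy3 and red with DJ28 in Cy5. Each of the 9 lines runs down from GSY1 to GSY2, the least steep by 0.14.

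GLC3 (YEL011W), the gene of the branching enzyme, had the smallest standard deviation over replicates of the lower set, at 0.22. It had no value on array 1 and -0.74, -0.61, -0.32 and -0.34 on arrays 2 to 5. Arrays 6 to 10 gave -0.79, -0.79, -0.29, -0.46 and -0.78. All 8 replicates with a value lay below 0, and the means of the orientations were close, at -0.50 ± 0.21 (SD, n = 4) with DJ28 in Cy3 and -0.58 ± 0.25 (SD, n = 4) with DJ28 in Cy5. The difference was -0.54 (95% interval -0.77 to -0.31), 1.45-fold lower, with a standard error of 0.105. It missed the threshold (limma, adjusted p = 0.0587), and without array 8 it passed at -0.59 (adjusted p = 0.0357). It did not pass without any other single array, and without array 10 it was -0.51 (adjusted p = 0.213). Within the array sets it was -0.47 and -0.61.

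The glycogenin genes, whose products prime a new glycogen particle, lay close to 0. GLG1 (YKR058W) ranged from -0.33 to 0.07 over 8 replicates, 5 of them below 0, with a difference of -0.11 (95% interval -0.32 to 0.10, limma adjusted p = 0.635). GLG2 (YJL137C) had values of -0.20, -0.04, -0.43 and -0.58 on arrays 2 to 5, and 0.40, 0.35, -0.12, 0.13 and 0.47 on arrays 6 to 10. It was thus below 0 on each array with DJ28 in Cy3 and above 0 on all but array 8 with DJ28 in Cy5. The mean was -0.31 ± 0.24 (SD, n = 4) in the former and 0.21 ± 0.27 (SD, n = 4) in the latter orientation. The fitted dye effect of GLG2 was 0.26 (limma, adjusted p = 0.183), and the strain difference was -0.05 (95% interval -0.29 to 0.19, adjusted p = 0.861). Without array 8 that difference was 0.01. GLG1 minus GLG2 was -0.06, with a standard deviation of 0.43 over 8 replicates (exact permutation p = 0.629, adjusted p = 0.786).

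The breakdown genes had low values as well, with standard deviations over replicates of 0.53 for GDB1 and 0.68 for GPH1, against 0.16 to 0.37 for the synthesis genes. GDB1 (YPR184W), which encodes the debranching enzyme, had values of -0.36, -0.54, -0.59, 0.13 and -1.07 on arrays 1 to 5. Those on arrays 6 to 10 were -1.42, -1.39, -0.21, -1.46 and -0.75. Array 4 alone was above 0, and the lowest values lay on arrays 6, 7 and 9. The difference was -0.72 (95% interval -1.06 to -0.38), 1.65-fold lower, with a standard error of 0.154. It was the lowest of the 9 glycogen genes tested, and it missed the threshold (limma, adjusted p = 0.0783). It passed without array 4, at -0.80 (adjusted p = 0.0314), and without array 8, at -0.84 (adjusted p = 0.0209). It did not pass without any other single array, and without array 9 it was -0.64 (adjusted p = 0.309). With DJ28 in Cy3 the mean was -0.48 ± 0.43 (SD, n = 5), and with DJ28 in Cy5 it was -0.95 ± 0.59 (SD, n = 4). Within the array sets the difference was -0.78 and -0.65.

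GPH1 (YPR160W), the gene of glycogen phosphorylase, had no value on array 1 and -0.36, -0.35, 0.14 and -0.92 on arrays 2 to 5. On arrays 6 to 10 it had -2.05, -2.12, -0.25, -0.40 and -0.28. Arrays 6 and 7, which count as 1 replicate, stood far below the rest, and array 4 was above 0 as for GDB1. The difference was -0.56 (95% interval -1.02 to -0.11), 1.48-fold lower, with a standard error of 0.206, and it did not pass (limma, adjusted p = 0.303). Without arrays 6 and 7 it was -0.34 (adjusted p = 0.506), so much of its size rested on this replicate. Within arrays 4, 5, 9 and 10 the difference was -0.37, and within the remaining arrays -0.76. GPH1 minus GDB1 was 0.17 with a standard deviation of 0.49 over 8 replicates, below 0 on 2 of them (exact permutation p = 0.40, adjusted p = 0.667).

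Taking the classes side by side, the fitted median was -0.11 for the 5 synthesis genes and -0.64 for the 2 breakdown genes, a gap of 0.53. The fitted synthesis median is the value of GLG1, with GLC3 and GSY2 well below it. Taken on each replicate first, the class medians lay closer together, with a median of -0.32 for synthesis and -0.47 for breakdown. The breakdown median lay below the synthesis median on 8 of 9 replicates, with array 4 the exception at -0.46 for synthesis minus breakdown. On 2 of these 8 the classes lay close, with a gap of 0.03 on array 1 and 0.08 on array 3. On array 1 the classes rest on GSY1, GSY2 and GDB1 alone, since their other genes had no value there. Over the replicates the gap ran up to 1.42, on the mean of arrays 6 and 7. Its standard deviation over them was 0.52, about as large as the fitted gap of 0.53. The fitted gap was 0.41 without arrays 6 and 7, 0.12 on arrays 1 to 5 alone, and 0.71 on arrays 6 to 10 alone. Each of the latter values comes from a single dye orientation, where strain and dye cannot be told apart. Within the array sets the gap was 0.41 and 0.65. No test was made of the gap. The low synthesis genes, GLC3 and GSY2, lay close to the breakdown gene GPH1, while GSY1 and both glycogenin genes made up the rest of the synthesis class.

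**Figure D4:**
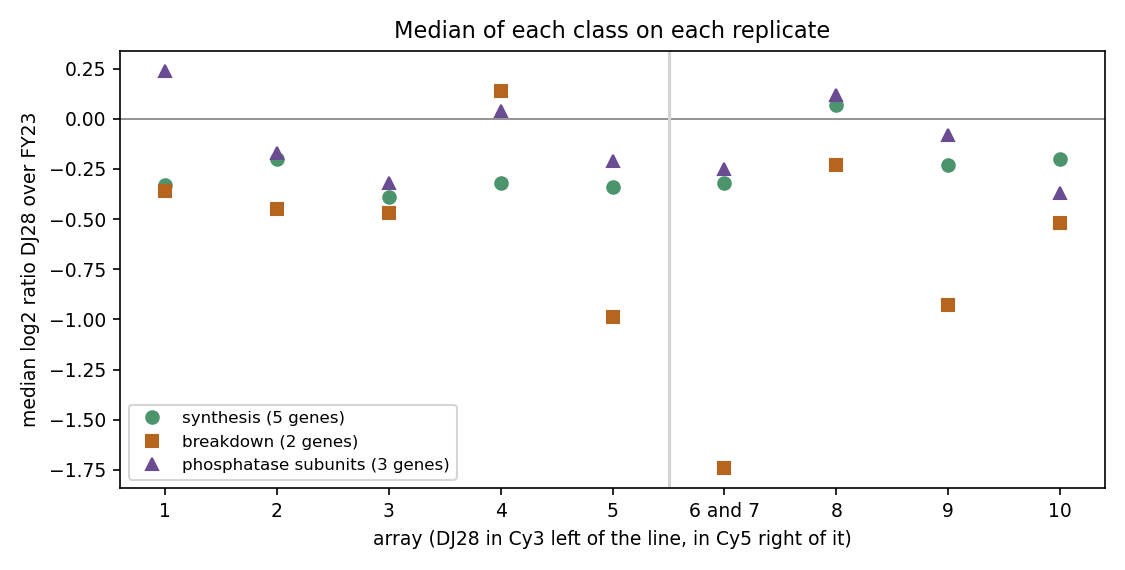
Median log2 ratio of DJ28 over FY23 (vertical axis) of the synthesis genes, the breakdown genes and the phosphatase subunit genes on each of the 9 replicates (horizontal axis). Breakdown lies lowest on 8 of 9 replicates, and at 0.14 on array 4 it lies highest. On array 1, where breakdown is GDB1 alone and synthesis is GSY1 and GSY2, these classes are only 0.03 apart.

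Of the phosphatase subunit genes, GAC1 was lower in DJ28, while PIG1 lay about 0 and PIG2 at 0.23. GAC1 (YOR178C), whose product directs the phosphatase to glycogen synthase, had values of -0.18, -0.35, -0.83, -0.18 and -0.51 on arrays 1 to 5. Its values on arrays 6 to 10 were -1.25, -1.26, -0.53, -0.80 and -0.63. It was lower in DJ28 on 9 of 9 replicates, and arrays 6 and 7 were the lowest. The difference was -0.61 (95% interval -0.85 to -0.37), 1.53-fold lower (standard error 0.109, limma adjusted p = 0.0341). The mean was -0.41 ± 0.27 (SD, n = 5) with DJ28 in Cy3 and -0.80 ± 0.32 (SD, n = 4) with DJ28 in Cy5. The size held without any 1 array, from -0.65 to -0.56. The call did not hold without array 2 (adjusted p = 0.0755), array 5 (0.0539), array 9 (0.121) or array 10 (0.0872). It was also lost without arrays 6 and 7 together, at -0.53 (adjusted p = 0.0833), and without arrays 1 and 2 together, at -0.66 (adjusted p = 0.105). Within the array sets the difference was -0.53 and -0.68, neither past the test (adjusted p = 0.109 and 0.413).

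PIG1 (YLR273C), which encodes a subunit related to Gac1, had no value on arrays 1 to 3. It had 0.16 and -0.21 on arrays 4 and 5, and 0.09, 0.18, 0.13, -0.08 and -0.21 on arrays 6 to 10. The values were split evenly about 0, with 3 of 6 replicates below it, and PIG1 was not tested with the other genes. In a fit that asked for 2 replicates in each orientation its difference was -0.01 (standard error 0.129, limma adjusted p = 0.972). GAC1 lay below PIG1 on 6 of 6 replicates, by 0.31 or more. The exact permutation p for that pair was 0.0667, the smallest that 6 replicates allow, so the pair could not reach the threshold.

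PIG2 (YIL045W), the gene of another putative phosphatase subunit, had values of 0.67, 0.01, 0.19, 0.04 and -0.04 on arrays 1 to 5. On arrays 6 to 10 it had -0.25, -0.25, 0.12, 1.65 and -0.37. It was higher in DJ28 on 6 of 9 replicates, and array 9 held a far higher value than any other array. The difference was 0.23 (95% interval -0.18 to 0.64, limma adjusted p = 0.602), and without array 9 it was 0.00. PIG1 minus PIG2 was -0.16 with a standard deviation of 0.77 over 6 replicates (exact permutation p = 0.933, adjusted p = 0.933), and without array 9 it was 0.08.

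Around these genes, 29 further genes of the pathway were listed, of which 28 were tested, with 14 negative and 14 positive differences and a median of 0.00. One of them, PGM2, was lower past limma's test and 0 were higher, where 0.461% and 0.0886% of all tested passed in these directions. At an unadjusted p under 0.05 there were 4 lower and 2 higher, against 7.39% and 5.96% of all tested, so the share that was higher was near that of all genes. PGM2 (YMR105C) encodes the main phosphoglucomutase, which turns glucose 6-phosphate into the glucose 1-phosphate from which UDP-glucose is made. Its values were -0.98, -1.04, -0.82 and -1.28 on arrays 2 to 5 and -0.98, -1.08, -0.36, -0.81 and -0.81 on arrays 6 to 10. All 8 replicates with a value were below 0, array 8 the nearest to it. The difference was -0.89 (standard error 0.107, limma adjusted p = 0.00534). UGP1, whose product makes UDP-glucose, had a difference of -0.41 and was below 0 on 7 of 7 replicates, without passing (adjusted p = 0.186). All 4 low genes at the unadjusted threshold belonged to the 6 genes of substrate supply, which had a median of -0.25. The other 2 of these 6 had positive differences, and PGM2 was the only 1 of the 6 past limma's adjusted test.

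Genes of the phosphatase and of the kinases that act on glycogen synthase lay on both sides of 0. The 9 other phosphatase genes had 6 positive differences and a median of 0.12, with 0 past limma's test and 1 higher at an unadjusted p under 0.05. That gene was GLC8, a modulator of the catalytic subunit Glc7, at 0.34 (adjusted p = 0.345). GLC7 itself had a difference of 0.17 (95% interval -0.06 to 0.40, adjusted p = 0.48). The 12 genes of kinases and cyclins had 6 negative and 6 positive differences and a median of 0.00, with 0 past the test and 1 higher at the unadjusted threshold. That gene was PHO85, which encodes a kinase that phosphorylates glycogen synthase, at 0.30 (limma, adjusted p = 0.279). IGD1, which encodes an inhibitor of the debranching enzyme, was at -0.04 (adjusted p = 0.92).

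**Figure D5:**
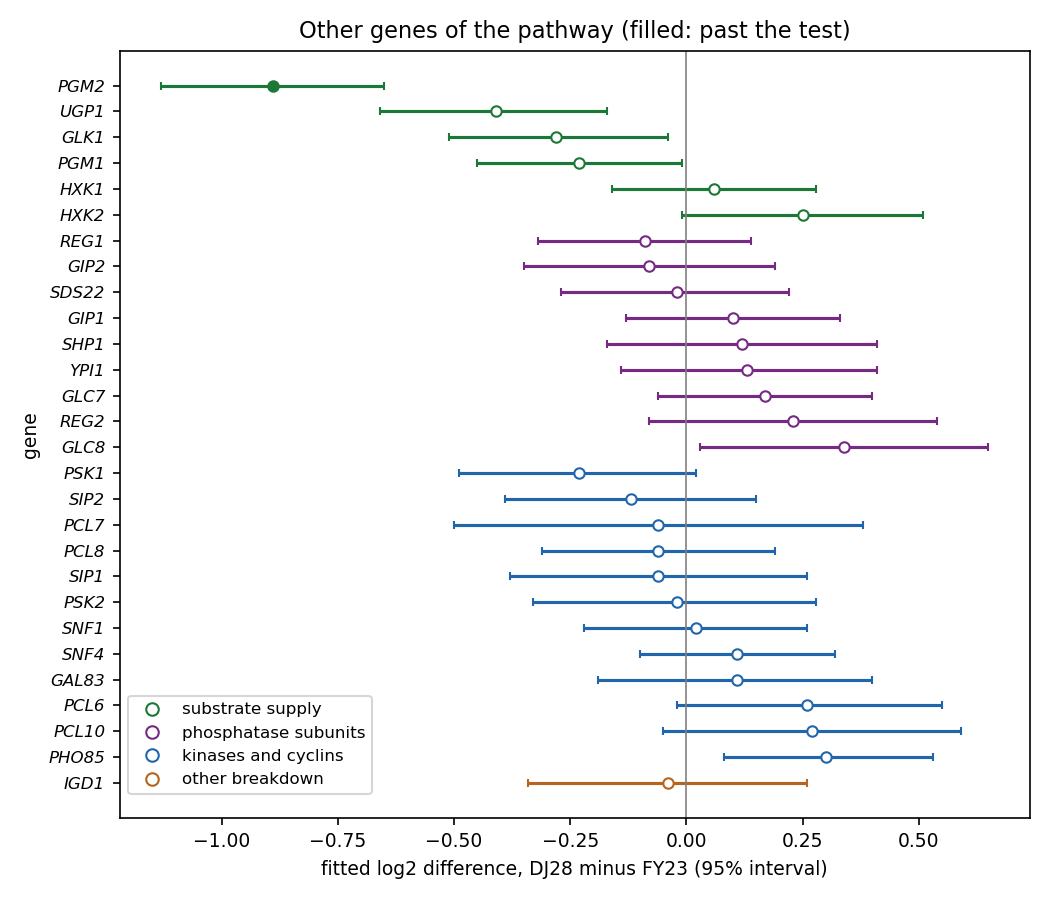
Fitted log2 difference of DJ28 minus FY23 with 95% intervals (horizontal axis) for the 28 tested genes around the glycogen enzymes (vertical axis), by role. PGM2, filled, is the gene past the test at -0.89, and the other points lie between -0.41 and 0.34.

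Other lists that were low on the same arrays stand beside the glycogen genes for comparison. Among the 7 genes of trehalose, the other carbohydrate store of yeast, 6 were tested and all 6 differences were negative, with a median of -0.42. TSL1 at -0.75 and TPS2 at -0.61 passed the test. Of 10 genes used for growth without glucose 1, JEN1, was lower past the test, 9 differences were negative and 1 positive, and the median was -0.37. Of 12 general stress genes 4 (HSP26, HSP12, YGP1 and DDR48) were lower past the test, 9 differences were negative and 3 positive, and the median was -0.33. The share of all tested that was lower past the test was 0.461%. Whether the strains were harvested at the same stage of growth, which is known to affect such genes, was not tested.

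The course of the 10 glycogen genes over the replicates was summarised as their median on each replicate, which ran from -0.44 to 0.03 and was below 0 on 8 of 9. Array 4, at 0.03, and array 8, at -0.03, were the nearest to 0. Likeness was sought among 235 named genes with a value on every replicate and a negative difference of at least 0.5 times the fitted glycogen median of -0.50. EGT2 (YNL327W) was nearest to the course of the glycogen genes. Its root mean square difference from it was 0.0979 in log2 units over 9 replicates. The next were PLB2 at 0.142, PHO90 at 0.156, YAR062W at 0.162, AIP1 at 0.168 and TGL4 at 0.17. Single glycogen genes lay farther from their own median, from 0.222 for GLG1 to 0.767 for PIG2, so the median hides much of the difference between them.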

How the data were processed

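The authors deposited 1 table of 6277 rows with 1 value per array, read here as a log2 ratio of the 2 dyes, since 13 cells lie at an upper limit of 16.61. Scale and direction are not stated, and array medians ran from -0.498 to 1.38. Their normalization and filters are not stated. Rows were named through the platform annotation (5663 with 1 symbol, 614 unnamed), and 5659 matched the R64 gene table, which was used for names only. Capped cells were left out, array medians were subtracted, and rows of a gene were averaged. limma 3.58.1 in R 4.3.3 fitted a dye and a strain term on 9 replicates to genes with values on at least 3 replicates per orientation. P-values were adjusted by Benjamini-Hochberg over all 5642 tested, with a threshold of 0.05. The median standard error was 0.131, and the number of arrays limits the precision. Gene pairs were compared by exact permutation of the dye orientations. The limma fit and the gene pair comparison were tested on simulated data with noise drawn independently for each array. Likeness between arrays, the class medians, the likeness list and the outlier flags were not covered. Named genes were all 10 glycogen genes, PDE2, pathway genes past the test or with the largest differences, and the 6 genes nearest to the glycogen median. GLC7, IGD1 and SGA1 were named after their values were seen. The genes and lists were chosen with earlier results of these data known. Alternatives covered centring, weights, missing values, array sets, dye orientation and left-out arrays. Sequences were not used here.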

Additional observations from a re-analysis of the deposited data

Results flagged for a closer look

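Of 19 sets of replicates of 1 glycogen gene in 1 dye orientation, 3 held a value far from the others, where chance flags about 1 set in 20. GPH1 was at -2.08 on the mean of arrays 6 and 7, where the other replicates with DJ28 in Cy5 lay between -0.40 and -0.25. GSY2 was at 0.12 on array 8, where the others with DJ28 in Cy5 lay between -0.58 and -0.50. GLG1 was at -0.33 on array 5, where the others with DJ28 in Cy3 lay between -0.02 and 0.05. This flag was borderline: the gap to the nearest value was 0.83 of the range, barely past the cut-off. For GPH1 it was 0.918 and for GSY2 0.887. What set these values apart was not tested.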

How the results depend on the processing

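The count of 31 genes past the test over all genes was 79 with all 10 arrays counted apart, 113 with array weights, 17 without arrays 6 and 7, 6 without arrays 1 and 2, and 4 without these 4 arrays, a setting chosen after seeing the data. It was 4 with no centring, 3 against a 1.2-fold change, 2 with only DJ28 in Cy5, 0 with only DJ28 in Cy3 (711 at an unadjusted limma p under 0.05), 0 within arrays other than 4, 5, 9 and 10 (485 unadjusted), and from 10 to 79 with 1 array left out. The count of 1 lower glycogen gene became 4 with all arrays apart or with weights (GAC1, GDB1, GLC3 and GSY2), 3 with values on all replicates (GAC1, GDB1 and GSY2) or a dye effect per array set (GAC1, GLC3 and GSY2), and from 0 to 4 with 1 array left out. It was 0 with no centring, without arrays 1 and 2, without arrays 6 and 7, without all 4, against a 1.2-fold change, within either array set and within either orientation. At an unadjusted limma p under 0.05, from 3 to 5 glycogen genes were lower in each of these settings. The share of all genes at that threshold, both directions together, varied widely. It was 103 of 5642 against a 1.2-fold change (4 glycogen genes lower) and 184 of 5642 with no centring (3 lower). It was 985 of 5492 within arrays 4, 5, 9 and 10 (4 lower) and 1280 of 5941 with only DJ28 in Cy5 (3 lower). The median of -0.50 was -0.30 when PIG1 entered with 2 values per orientation, and -0.26 both within arrays 4, 5, 9 and 10 and with only DJ28 in Cy5, where PIG1 also entered. Where PIG1 did not enter, it was -0.34 without arrays 6 and 7, -0.37 with only DJ28 in Cy3 and -0.40 with array weights. It was lowest without array 8, at -0.58. The fitted gap between synthesis and breakdown stayed above 0 under 26 alternatives, from 0.12 to 0.71. GSY1 turned to 0.05 with no centring. GLG2 turned to 0.00 within the remaining arrays, to 0.21 with only DJ28 in Cy5, and ran from -0.09 to 0.01 with 1 array left out. Fits with a single orientation, here and above, had no dye term, so strain and dye could not be told apart in them. GSY1 minus GSY2 lost its call without arrays 1 and 2 (0.46) and without arrays 6 and 7 (0.43), and ran from 0.41 to 0.49 with 1 array left out, where the smaller number of replicates sets the p. PIG1 minus PIG2 ran from -0.23 to 0.08 with 1 array left out. The cause of the other changes was not tested. Array numbers are not shared between orientations, so no paired analysis was possible because no numbers pair the arrays.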

Other observations

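SGA1, which encodes the glucoamylase that breaks down glycogen during sporulation, had too few values for the test. Its log2 ratios of DJ28 over FY23 were 0.62 and -0.20 on arrays 3 and 4, and -4.31, -3.20, -1.97 and -1.06 on arrays 6, 7, 8 and 10. The values with DJ28 in Cy5 were thus all below 0 and far apart, while those with DJ28 in Cy3 lay on both sides of 0. Arrays 6 and 7 count as 1 replicate, so SGA1 had values on 5, and strain and dye were not separated for it.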
